A study of Mus musculus with 30 samples.

Results

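The genes of NF-κB factors and their regulators were followed in 4 peak lists from chromatin immunoprecipitation and sequencing. The cells were WT-MA9, a line of murine acute myeloid leukaemia with stable expression of MLL-AF9 from the retroviral vector pMSCV-MLL-AF9-GFP. The 10 genes, of 21887 protein-coding genes on the assembled chromosomes, were chosen by name: the 5 factor genes Nfkb1, Nfkb2, Rel, Rela and Relb, the inhibitor genes Nfkbia, Nfkbib and Nfkbie, and the signalling genes Tnfaip3 and Ripk2. The lists map UTX in MI-503, UTX in DMSO, Menin in MI-503 and Menin in DMSO. All 4 came from the same line, carrying the same fusion, grown with IL6, IL3 and SCF and harvested 4 days after treatment. MI-503 is a small molecule that keeps Menin from binding MLL, and DMSO served as vehicle. The labels used here state no dose of MI-503. With 1 library per condition, no value below has a replicate check and no p-value is given. Peak lists hold no transcript levels, so neither the labelled cell type nor the activity of these genes was checked.

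NF-κB factors bind DNA as dimers of Rel-family proteins, held inactive in the cytoplasm by IκB proteins until a kinase complex marks the IκB for destruction. Rela, Rel and Relb carry activation domains, while Nfkb1 and Nfkb2 encode precursors that are processed into DNA-binding subunits and can also act as inhibitors. Several of these genes are themselves known NF-κB targets, which gives the pathway its feedback. In myeloid cells the pathway drives the response to cytokines and microbial products. Menin is a scaffold subunit of the MLL1 and MLL2 complexes, best known at promoters. UTX is a histone demethylase in the related MLL3 and MLL4 complexes, best known at enhancers.

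UTX in MI-503 had a peak at all 10 genes and Menin in DMSO at 9 of 10, while UTX in DMSO and Menin in MI-503 had a peak at none. A gene was counted when a summit, the highest point of a peak, lay inside it or within 5 kb. By the same rule, UTX MI-503 peaks were at 48.3% of all protein-coding genes and Menin DMSO peaks at 42.9%. For UTX in DMSO the share of all genes was 1.07% and for Menin in MI-503 it was 0.0183%, and at such shares a count of 0 among 10 genes says little about the members. Absence from a list means that no peak passed the authors' threshold, and the depth of the libraries is unknown. The lists held 14231 peaks for UTX in MI-503, 217 for UTX in DMSO, 8 for Menin in MI-503 and 11195 for Menin in DMSO. The nearest UTX DMSO summits lay 16383 bp from Nfkbib and 82833 bp from Nfkb2, and at least 398400 bp from the other members. Nfkb1 was the member without a Menin peak, and the nearest Menin DMSO summit lay 146004 bp from it. Both lists had a peak at 9 members (38.0% of all genes). Within 1 kb of a gene boundary, UTX in MI-503 had a summit at 8 members (36.5% of all genes), UTX in DMSO at 0 (0.777%), Menin in MI-503 at 0 (0.00914%) and Menin in DMSO at 8 (31.2%).

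The members held 20 UTX MI-503 peaks and 16 Menin DMSO peaks. More than 1 summit was counted at 6 of the 10 members for UTX (38.5% of all genes with a peak) and at 5 of 9 for Menin (27.1%). A Menin DMSO peak overlapped 15 of the 20 UTX peaks by at least 1 bp (75%, exact 95% interval 50.9 to 91.3%), against 53.4% of all UTX MI-503 peaks. A UTX MI-503 peak overlapped 15 of the 16 Menin peaks (93.8%, 69.8 to 99.8%), against 66.4% of all Menin DMSO peaks. These intervals cover counting error only, and peaks of 1 gene are not independent. The 2 lists differ in both antibody and treatment, which cannot be told apart here, and overlap does not show both proteins in the same cells. The highest UTX and Menin summits of a member lay a median of 79 bp apart in the 9 genes with both, compared with 49 bp over 8321 protein-coding genes with both.

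Fold enrichment, the authors' value, is the fragment pileup at the summit over the local background, each plus 1. Solving it together with the p-value gave whole fragment counts in both long lists, with a single solution for 99.6% of UTX MI-503 peaks and 99.99% of Menin DMSO peaks. The fragment counts below are these recovered values, with exact 95% Poisson intervals for counting error only. The median peak held 14 fragments for UTX in MI-503 and 29 for Menin in DMSO, so UTX values carry the larger relative error. Folds and counts are compared within a list only. Coordinates are those of mm10, and the RefSeq gene table gives gene spans without exons, so introns and exons are not told apart.

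**Figure D1:**
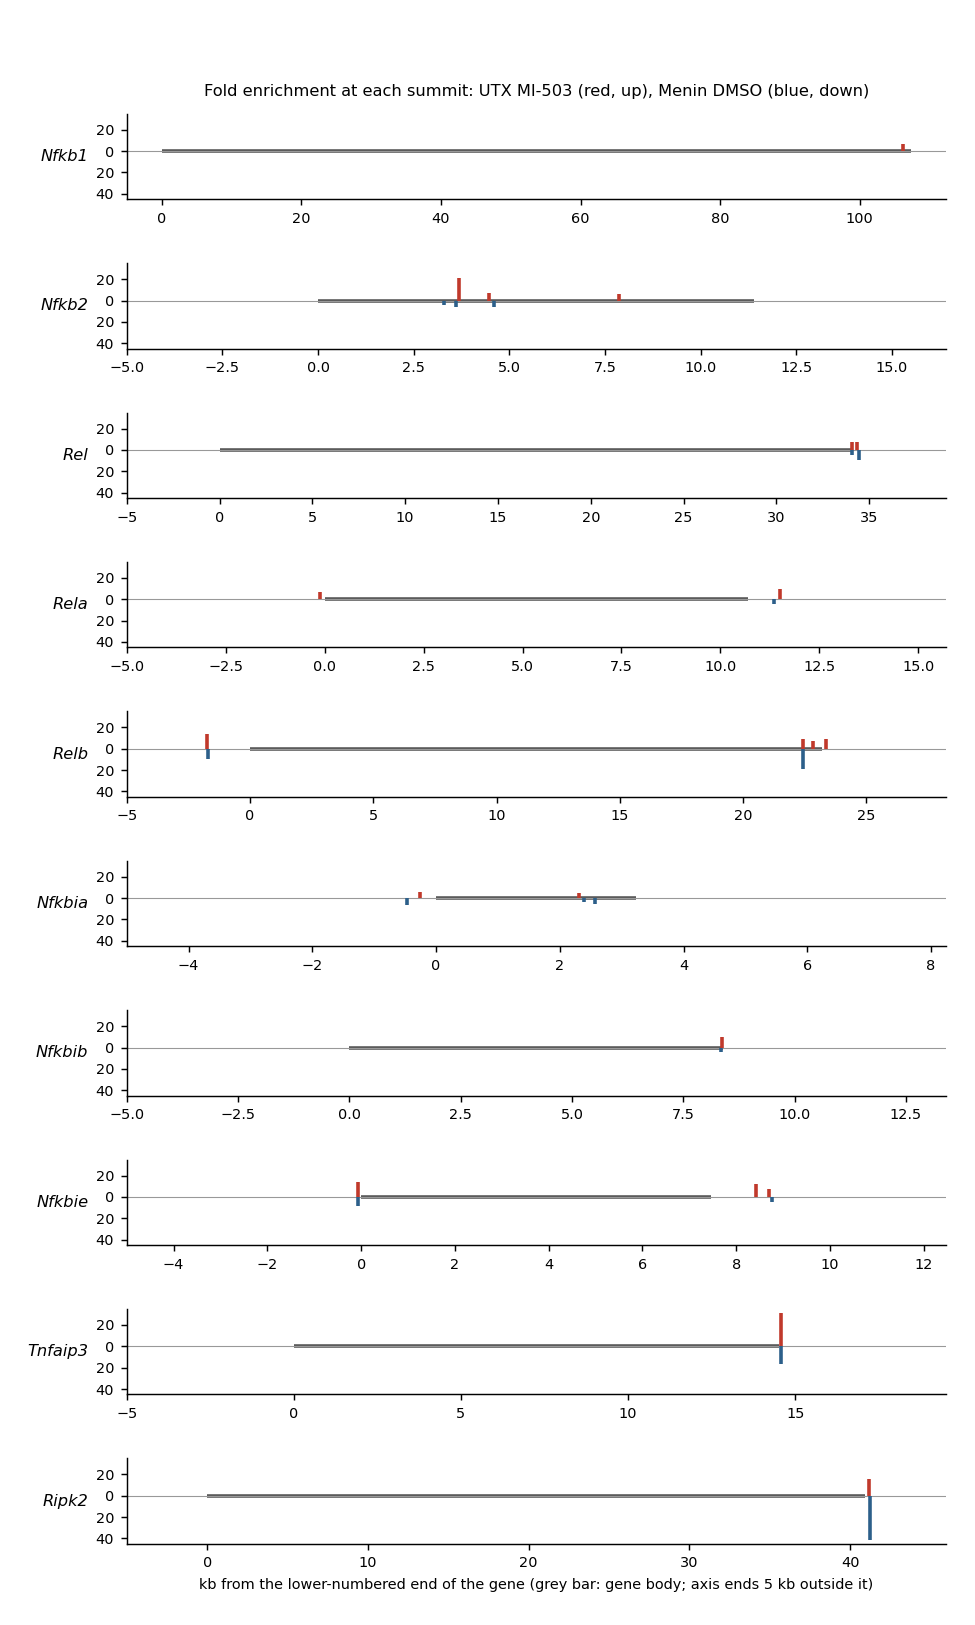
Each row is 1 gene, drawn as a dark bar on a scale of kb from its lower-numbered end, and each vertical line is a summit with its fold enrichment, upwards in red for UTX MI-503 and downwards in blue for Menin DMSO. The tallest UTX line is at Tnfaip3 (30.9-fold) and the tallest Menin line at Ripk2 (41.1-fold), both just outside a gene end, and Nfkb1 has no Menin line.

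The start sites themselves are shown because peaks of both lists lay on several of them. RefSeq windows of the GRCm38.p6 build, from 250 bases before to 50 bases after an annotated start, were available for 7 members in 10 windows. Nfkb1, Relb and Ripk2 were not in that table. A UTX MI-503 peak overlapped 8 of the 10 windows (33.0% of all 21263 windows of protein-coding genes) and a Menin DMSO peak 7 (29.0% of all). Printed 5′ to 3′ in the direction of transcription is the Tnfaip3 window at its outer start (chr10:19015361-19015660, minus strand). The first Nfkb2 window (chr19:46304487-46304786, plus strand) and the Nfkbie window (chr17:45555450-45555749, plus strand) follow. These windows lay under the start-site peaks that ranked highest by −log10 q for their genes. They are set beside the Nfkbib window (chr7:28766595-28766894, minus strand), which had peaks but no κB match, and the Nfkbia window (chr12:55492598-55492897, minus strand), which had a κB match but no peak. Capitals mark matches to the 10-letter κB consensus on either strand and the CCAAT box.
Tnfaip3: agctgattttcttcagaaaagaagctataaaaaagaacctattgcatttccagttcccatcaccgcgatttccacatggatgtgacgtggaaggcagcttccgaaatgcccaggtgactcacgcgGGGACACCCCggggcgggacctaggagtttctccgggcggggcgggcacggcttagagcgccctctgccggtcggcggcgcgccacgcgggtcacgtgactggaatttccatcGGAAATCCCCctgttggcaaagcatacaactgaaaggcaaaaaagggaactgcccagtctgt
Nfkb2: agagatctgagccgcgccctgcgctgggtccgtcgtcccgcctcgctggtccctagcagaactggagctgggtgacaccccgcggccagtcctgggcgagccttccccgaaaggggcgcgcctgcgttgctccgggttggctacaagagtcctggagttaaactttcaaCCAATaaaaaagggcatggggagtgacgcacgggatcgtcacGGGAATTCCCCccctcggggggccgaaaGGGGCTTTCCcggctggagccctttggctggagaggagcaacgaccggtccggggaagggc
Nfkbie: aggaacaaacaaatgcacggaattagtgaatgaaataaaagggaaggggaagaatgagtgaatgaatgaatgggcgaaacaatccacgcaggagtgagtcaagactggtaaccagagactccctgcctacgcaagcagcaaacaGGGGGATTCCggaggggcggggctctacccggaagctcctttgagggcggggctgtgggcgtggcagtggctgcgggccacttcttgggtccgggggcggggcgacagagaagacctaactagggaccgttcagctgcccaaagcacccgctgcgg
Nfkbib: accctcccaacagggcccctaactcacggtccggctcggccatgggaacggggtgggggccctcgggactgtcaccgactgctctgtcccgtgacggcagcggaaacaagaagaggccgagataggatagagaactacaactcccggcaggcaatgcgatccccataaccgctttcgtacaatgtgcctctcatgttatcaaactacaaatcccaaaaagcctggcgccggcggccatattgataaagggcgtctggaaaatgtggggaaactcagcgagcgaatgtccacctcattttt
Nfkbia: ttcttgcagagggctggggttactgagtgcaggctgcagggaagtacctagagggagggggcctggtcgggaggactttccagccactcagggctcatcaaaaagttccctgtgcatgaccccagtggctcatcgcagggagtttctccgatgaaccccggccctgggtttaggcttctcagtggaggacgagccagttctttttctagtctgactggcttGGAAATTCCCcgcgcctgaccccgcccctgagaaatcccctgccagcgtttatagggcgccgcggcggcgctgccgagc

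The κB consensus was found in 7 of the 10 windows, in 5 of the 7 genes, and in 4.81% of all windows. The matches lay in Nfkb2, Rel, Nfkbia, Nfkbie and Tnfaip3, and no window of Rela or Nfkbib held one. Windows 2 and 3 of Nfkb2 overlap and share a match. The match nearest the outer Tnfaip3 start began 12 bases before it, and that of Nfkbia 29 bases before it. At the first Nfkb2 start, matches that began 39 and 38 bases before it overlap in all but 1 base at each end, and are drawn as a single run of capitals. CCAAT or ATTGG was found in 1 window, the first of Nfkb2, 81 bases before the start, and in 38.2% of all windows. A match is a run of letters and was not shown to be bound by any factor. A looser pattern, GGG and CC with any 5 bases between them, which the consensus also satisfies, stood on either strand in 57.0% of all windows.

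**Figure D2:**
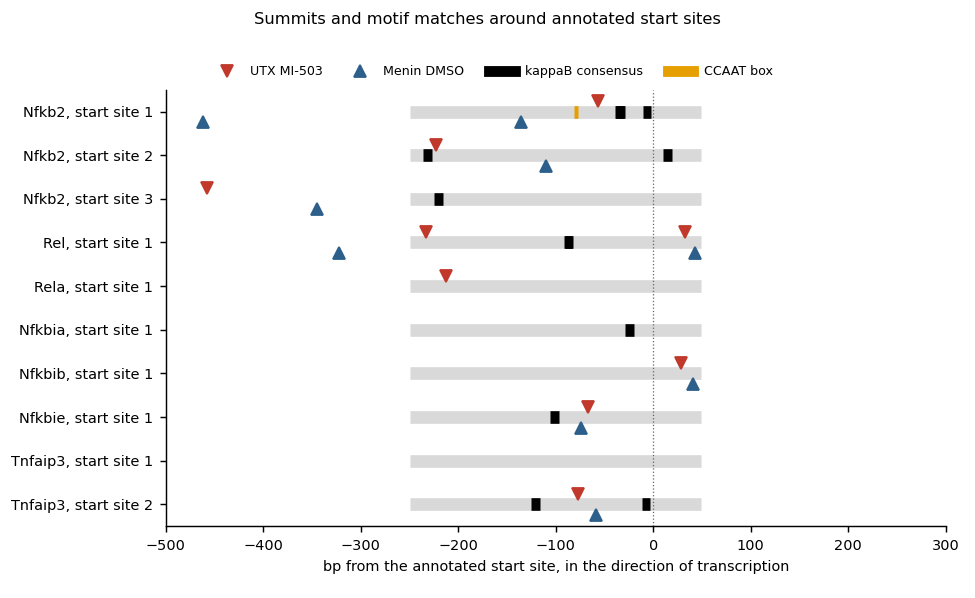
Grey bars are the 10 start-site windows, black blocks κB consensus matches, the orange block a CCAAT box, and triangles summits of UTX MI-503 (red) and Menin DMSO (blue) by distance in bp from each annotated start. Summits lie in or beside the windows of Nfkb2, Rel, Rela, Nfkbib, Nfkbie and Tnfaip3, and none is drawn at the Nfkbia start. Nfkb2 summits appear beside each start site within reach.

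Among the factor genes, Nfkb2 had the highest UTX peak and Relb the highest Menin peak. Going by each gene's highest peak, Nfkb1 stood lowest of the factor genes for UTX, and it had no Menin peak. Nfkb2, which encodes the p100 precursor of the non-canonical branch, had its highest UTX MI-503 peak (chromosome 19, 46304171 to 46304850) 57 bp before the first of its 3 annotated starts, at 21.3-fold with 38 fragments (interval 26.9 to 52.2). It ranked 851 of 14231 by −log10 q. The Menin DMSO list had a pair of peaks under that UTX peak, with summits 136 and 462 bp before the start, at 5.97-fold (32 fragments) and 4.13-fold (23 fragments). At the second start, a UTX peak of 11 fragments and a Menin peak of 29 fragments had summits 113 bp apart. That Menin peak had the higher fold, 6.47, but ranked below the 5.97-fold peak by −log10 q (5097 against 5071). Another UTX peak, of 10 fragments, lay 3528 bp from the gene end and 3213 bp from Psd, its neighbour, with no Menin peak over it. The other Nfkb2 summits in both lists lay inside the long non-coding gene 4833438C02Rik, which overlaps the first Nfkb2 start and ends before the second.

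Relb, the factor that pairs with the Nfkb2 product, had its strongest Menin DMSO peak (chromosome 7, 19628239 to 19629162) 797 bp inside its higher-numbered end. That peak was 924 bp wide, reached 18.9-fold with 95 fragments (76.9 to 116) and ranked 344 of 11195. Over the same stretch UTX MI-503 was split into 3 smaller peaks of 18, 13 and 15 fragments, of which the last lay 151 bp outside the gene, past the edge of the Menin peak. The nearer boundary of the neighbour Clptm1 lay 2939 bp from the Menin summit and 1991 to 2920 bp from these UTX summits. The highest UTX peak of the Relb window, at 13.7-fold with 24 fragments, was at its other end, 1762 bp outside Relb and 31 bp from the start of Clasrp. A Menin peak of 48 fragments had its summit 27 bp from that same Clasrp start. The highest summits of the pair of lists at Relb were therefore 24186 bp apart, the largest distance among members.

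Rel, which encodes c-Rel, the haematopoietic family member, had a pair of peaks in each list around its start on chromosome 11. The UTX MI-503 summits lay 33 bp after and 233 bp before the start with 13 and 12 fragments. The Menin DMSO summits lay 43 bp after and 322 bp before it with 15 and 31 fragments, and the upstream peak (23771034 to 23771453) reached 9.59-fold. The intervals of the UTX pair overlapped, and so did those of the Menin pair (8.40 to 24.7 and 21.1 to 44.0). The local background at both Menin peaks was the lowest of the whole list. Both UTX MI-503 peaks of Rel also had the lowest background of their list. How many of all peaks in each list share that value is not given here. Among peaks of a list at that value, the fold follows the fragment count alone.

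Rela, which encodes p65, the main transactivating subunit, had a UTX MI-503 peak at its start without a Menin peak. It lay 114 bp outside the gene (chromosome 19, 5637218 to 5637410), at 7.11-fold with 12 fragments (6.20 to 21.0). The nearest Menin DMSO summit was 11470 bp away, past the other end of the gene. There, 664 bp beyond the gene and 2387 bp from Sipa1, the Menin peak had 23 fragments at 4.86-fold, under a UTX peak of 16 fragments at 9.30-fold. Nfkb1, which encodes the p105 precursor, had a single UTX peak (chromosome 3, 135690689 to 135690918), 1174 bp inside its higher-numbered end. Its fold of 7.11 and its 12 fragments were the same as at the Rela start, at the weaker Rel peak and at a peak near Nfkbie. In all, 388 UTX MI-503 peaks had exactly this fold and −log10 q, which tied at rank 7465, and 7.11 was also the median fold of the list.

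The 3 IκB genes differed in where their peaks lay. At Nfkbie, which encodes IκBε, the UTX MI-503 and Menin DMSO summits lay 67 and 74 bp before the start, 7 bp apart and the closest pair among members. The UTX peak (chromosome 17, 45555493 to 45555913) reached 14.3-fold with 26 fragments (16.98 to 38.1), and the Menin peak 8.88-fold with 39 fragments (27.7 to 53.3). Past the other end of the gene, UTX peaks of 21 and 12 fragments and a Menin peak of 20 fragments lay inside Slc35b2, whose annotated start is 178 to 532 bp from them. Hsp90ab1, the next gene, was at least 3310 bp from these summits.

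Nfkbib, which encodes IκBβ, had 1 peak in each list, with summits 28 and 41 bp after its start. The start of Sirt2, a deacetylase gene, lay 136 and 149 bp away on the other side, and peak lists do not assign a peak to 1 of them. The UTX MI-503 peak (chromosome 7, 28766383 to 28766757) reached 10.1-fold with 24 fragments (15.4 to 35.7), and the Menin DMSO peak (28766467 to 28766731) 4.04-fold with 36 fragments (25.2 to 49.8). The local background under both was the highest at any member, 1.78 times the lowest of the UTX list and 3.49 times the lowest of the Menin list. Its Menin peak ranked 6598 of 11195 by −log10 q but 9731 by fold.

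Nfkbia, which encodes IκBα and is the classical feedback inhibitor, had no peak on its start-site window in either list. Its UTX MI-503 summits lay 931 bp after the start and 255 bp past the end of the gene, with 7 and 10 fragments. They ranked 14081 and 11198 of 14231, so Nfkbia stood lowest of the 10 members by its highest UTX peak. Its Menin DMSO summits lay 671 and 847 bp after the start, with 21 and 14 fragments, and 464 bp past the end (chromosome 12, 55488818 to 55489156), with 29 fragments at 6.66-fold. The summit at 671 bp was the only Menin peak at any member with no UTX peak over it. At the start itself neither list reached the authors' threshold, and these files do not tell a weak signal from none.

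The highest-ranked peak of the members in each list was at a signalling gene, Tnfaip3 for UTX in MI-503 and Ripk2 for Menin in DMSO. Tnfaip3 encodes A20, a ubiquitin-editing enzyme that shuts down NF-κB signalling. Its UTX MI-503 peak (chromosome 10, 19015152 to 19015659) reached 30.9-fold with 63 fragments (48.4 to 80.6) and ranked 104 of 14231, the highest of the members. The interval lay above that of each other member's UTX peaks except Nfkb2, whose interval reached 52.2. The Menin DMSO peak over the same start reached 16.4-fold with 69 fragments (53.7 to 87.3) and ranked 731 of 11195. The summits lay 77 and 59 bp before the start, between the κB matches printed above. The other annotated start of Tnfaip3, inside the gene, had no peak over it.

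Ripk2 encodes the kinase that carries signals from the NOD receptors of bacterial cell wall fragments to NF-κB. Its Menin DMSO peak (chromosome 4, 16163272 to 16164300) was 1029 bp wide and reached 41.1-fold with 154 fragments (131 to 180.3). It ranked 12 of 11195 by −log10 q and 5 by fold, and its interval lay above those of all other Menin peaks at members. The UTX MI-503 peak over it was 715 bp wide and reached 15.6-fold with 29 fragments (19.4 to 41.6), at rank 1867 of 14231. The summits lay 200 bp (UTX) and 267 bp (Menin) outside the gene, and 232 and 165 bp from the long non-coding gene A530072M11Rik. Among 8321 genes with both peaks, the genes with the most similar pair of ranks were S100pbp and Yars, 0.192 percentage points from Ripk2, and Zhx1, 0.570 points away, over these 2 lists. Their Menin folds were lower than at Ripk2, 29.7 for S100pbp and Yars and 28.2 for Zhx1. For UTX they were 12.1 and 15.2. S100pbp and Yars had equal values in both lists, so they may share the same peaks and not be separate cases.

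**Figure D3:**
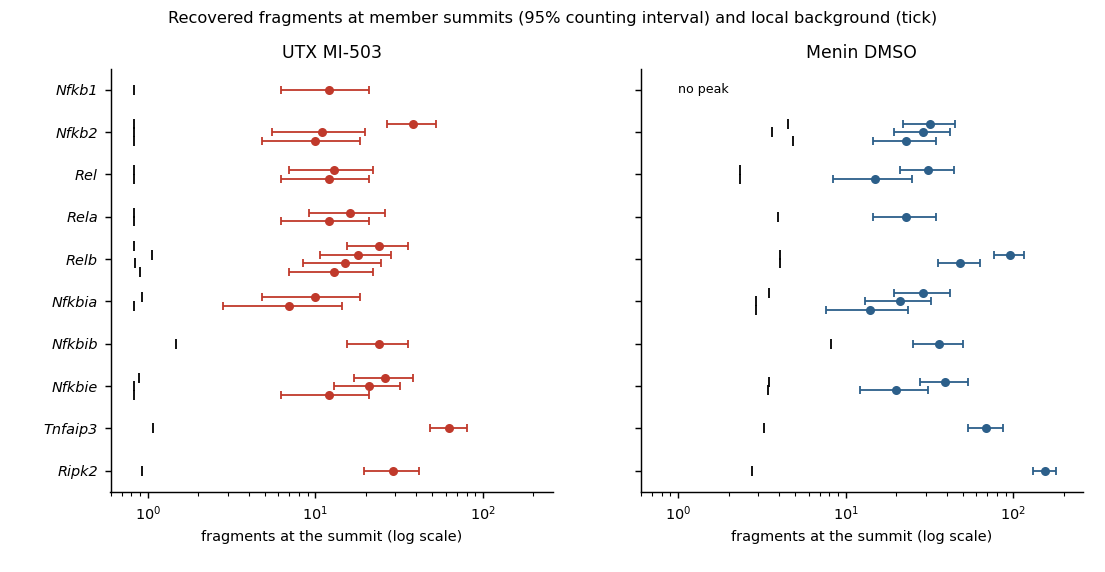
Points are fragments at each summit on a log axis, with 95% Poisson counting intervals, for UTX MI-503 (left) and Menin DMSO (right); vertical ticks mark the local background. Tnfaip3 stands highest on the left with 63 fragments and Ripk2 on the right with 154. Every interval lies above its background, which is no separate check because the peaks were called against that background.

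The members' order was not the same in the lists. By rank of the highest peak the order for UTX in MI-503 was Tnfaip3, Nfkb2, Ripk2, Nfkbie, Relb, Nfkbib, Rela, Rel, Nfkb1 and Nfkbia. For Menin in DMSO it was Ripk2, Relb, Tnfaip3, Nfkbie, Rel, Nfkbia, Nfkb2, Nfkbib and Rela. The median member reached the top 22.1% of the UTX list (median over genes with a peak 30.6%) and the top 30.9% of the Menin list (36.3%). Nfkb2 stood in the top 5.98% for UTX and 45.3% for Menin, and Relb in the top 18.1% for UTX and 3.07% for Menin. For Relb these were peaks at opposite ends of the gene, and the UTX peak lay 31 bp from the Clasrp start. Over that Menin peak of Relb, the stronger UTX peak stood in the top 33.6%. Neighbours in either order often had overlapping counting intervals: for UTX, the intervals of Ripk2, Nfkbie, Relb and Nfkbib all overlapped. Over the 8321 genes with both, the Spearman correlation of the 2 ranks was 0.544, across genes that share libraries and local background.

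**Figure D4:**
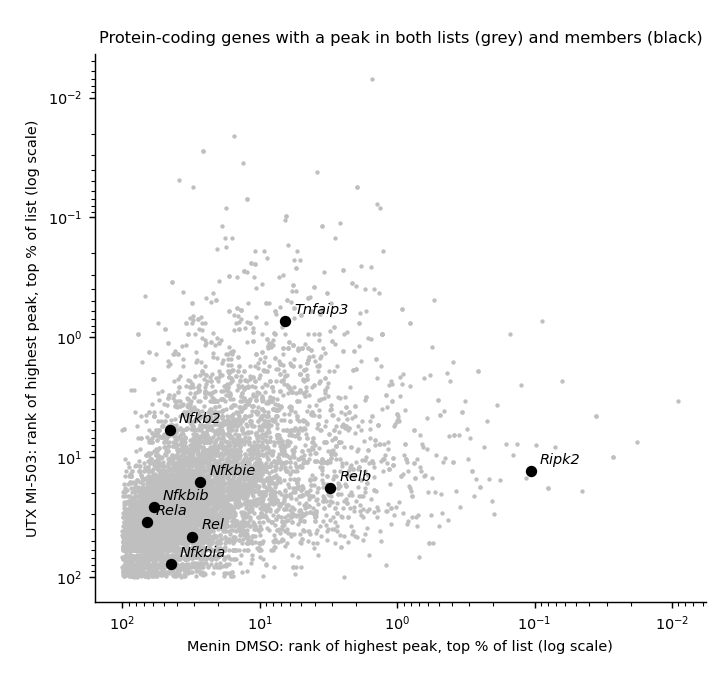
Each point is a protein-coding gene with a peak in both lists, placed by the rank of its highest peak as a percentage from the top of the UTX MI-503 list (vertical) and of the Menin DMSO list (horizontal), on log axes with the top at the upper right. Ripk2 lies far to the right (top 0.107% for Menin), Tnfaip3 highest among members (top 0.731% for UTX), and Nfkbia lowest (top 78.7%).

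The rest of the pathway was counted over 61 other genes in 6 lists. UTX in MI-503 had a peak at 47 of them (77.0%, against 48.3% of all protein-coding genes). Menin in DMSO had a peak at 42 (68.9%, against 42.9%). Both lists had a peak at 38 of the 61 genes, where 38.0% of all genes had both, and 10 of the 61 had neither. UTX in DMSO had a peak at 1 (1.07% of all genes), Bcl2l1, an antiapoptotic target gene, and Menin in MI-503 at none (0.0183%). Of the 10 genes of kinases and their partner subunits, UTX in MI-503 marked 9 and Menin in DMSO 7. Map3k14, which encodes the kinase NIK that starts the non-canonical branch, ranked highest among them in both lists (25.6-fold for UTX and 14.6-fold for Menin). Next came Map3k7, which encodes the kinase TAK1 (15.3-fold), and its partner Tab3 (14.8-fold) for UTX. For Menin they were Tab3 (10.2-fold) and Ikbkg, which encodes the regulatory subunit NEMO of the IκB kinase (9.89-fold). Tab2 had neither peak. All 3 other IκB-family genes had both, and Nfkbiz reached 18.6-fold for UTX and 20.9-fold for Menin. Nfkbid reached 9.85-fold for UTX and 3.56-fold for Menin, and Bcl3 9.22-fold for UTX and 12.4-fold for Menin.

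Of the 17 adaptor and receptor kinase genes, UTX in MI-503 marked 15 and Menin in DMSO 14. Bcl10, an adaptor of the CARD-containing signalling complex, had the highest Menin peak of the 61 genes (27.3-fold, rank 58), and Traf2, an adaptor of TNF receptors, reached 27.8-fold for UTX. Myd88, the adaptor of Toll-like receptors, reached 20.2-fold for UTX and 10.6-fold for Menin. Bcl10 reached 17.7-fold for UTX, and Traf5 15.7-fold for Menin. Of the 11 ubiquitin-editing genes, 10 had a UTX peak and 9 a Menin peak, led by Birc2 for UTX (24.1-fold) and by Cyld, a deubiquitinase that restrains the pathway, for Menin (18.3-fold). Sharpin (23.0-fold) and Tnip1 (19.7-fold) followed for UTX, and Tnip2 (15.8-fold) and Otulin (16.5-fold) for Menin, while Xiap had neither peak. Receptors and target genes stood nearer the share of all genes, with 4 of 8 receptor genes in each list. Ltbr (9.85-fold), Tnfrsf1a (7.68-fold) and Tnfrsf1b (8.21-fold) led the receptors for UTX. Tlr4, the lipopolysaccharide receptor gene, had a Menin peak (5.43-fold) and no UTX peak, and was followed for Menin by Tnfrsf1b (5.33-fold) and Tnfrsf1a (5.16-fold). Il1r1, Cd40 and Tnfrsf11a had neither. Of the 12 target genes, UTX in MI-503 marked 6 and Menin in DMSO 5. Bcl2l1 had the highest UTX peak of the 61 genes (33.9-fold, rank 60), ahead of the adhesion gene Icam1 (12.6-fold) and Ier3 (7.66-fold). For Menin the target genes were led by Sod2 (9.59-fold), Ier3 (8.60-fold) and Bcl2l1 (7.74-fold). The cytokine and adhesion genes Il6, Cxcl1, Cxcl2, Ccl2 and Vcam1 had neither. These shares were set beside those of all genes without a test.

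**Figure D5:**
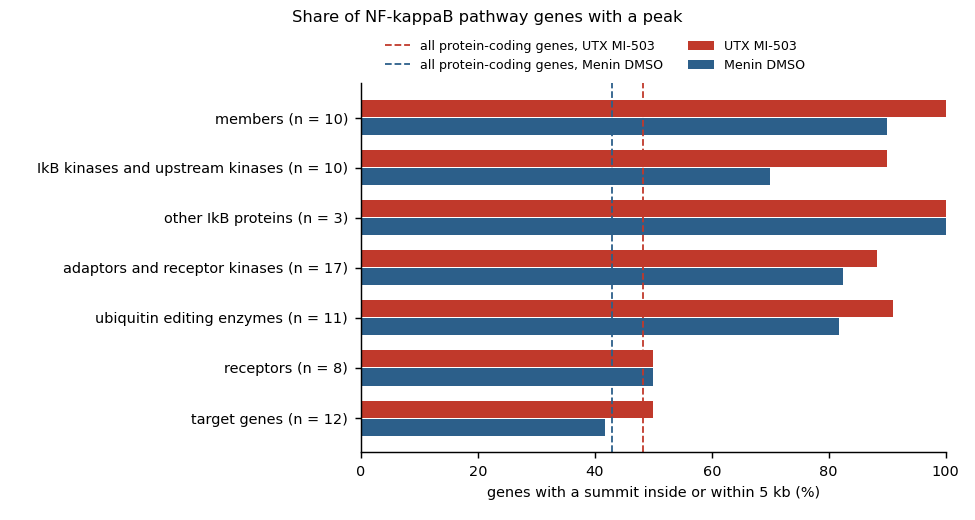
Bars give the percentage of genes in each list with a summit inside or within 5 kb, red for UTX MI-503 and blue for Menin DMSO, and dashed lines the same share of all protein-coding genes (48.3% and 42.9%). The 10 members stand at 100% and 90%, and target genes at 50% and 41.7%.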

How the data were processed

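The submitters' processing notes name MACS2, without a version, and mm10, to which the coordinates belong. Each deposited list holds 1 library called against a vehicle input, per the peak names, with 1 input for both UTX lists and another for both Menin lists. The alignment, read filtering and calling threshold were not stated there. The deposited fold is a ratio of pileup to local background, the deposited −log10 values are the summit's p-value and q-value, and the deposited score is 10 times −log10 q without its decimals, checked in all 25651 peaks. Absolute depth is unknown.

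Members and lists were chosen with earlier results of these data known. Summits were placed, counted from 1, on RefSeq genes (GRCm38.p6, the assembly of mm10). That table gives gene spans without exons or strand; start sites and strand came from RefSeq promoter windows. Whole fragments and background were solved from fold and p-value, with the p-value matched within 0.005 on the −log10 scale. More than 1 solution existed for 59 UTX MI-503 peaks and 1 Menin DMSO peak. There, a solution was kept only if it alone was not below the lowest background of its list. Gene assignment, overlap and the solver were tested on simulated data. The genes named are all members, neighbours that hold a member's summit within 5 kb, the 3 highest-ranked pathway genes per list and role, those stated to lack a peak, and the 3 genes nearest to Ripk2 in both ranks. Python 3.11.15, pandas 2.3.3 and scipy 1.17.1 were used. The labels describe 30 libraries, and those beyond these 4 were not analysed here.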

Additional observations from a re-analysis of the deposited data

How the results depend on the processing

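The counts of members with a peak were 10 for UTX MI-503 and 9 for Menin DMSO under several other rules. These were a −log10 q of at least 5 (44.4% of all genes for UTX and 39.6% for Menin), a 10 kb window (52% and 47.1%), any part of a peak within 5 kb (48.4% and 43%) and the nearest gene alone. No share of all genes is given for the nearest-gene rule, so its counts have nothing to be set beside. With a fold of at least 5 the counts were 10 and 7, where all genes had 46.4% and 33.2%. With summits within 1 kb of a gene boundary they were 8 and 8, where all genes had 36.5% and 31.2%. With summits inside the gene alone they were 6 and 5, where all genes had 31.1% and 22.7%, since peaks just outside a gene end were no longer counted. With each list shortened to its highest 217 peaks, as many as UTX DMSO holds, 1 member had a UTX MI-503 peak (Tnfaip3) and 1 a Menin DMSO peak (Ripk2), where all genes had 1.34% and 1.21%. UTX DMSO and Menin MI-503 stayed at 0 in each alternative run. Rules stricter than the main one could only give 0 again. By the main rule these lists reached 1.07% and 0.0183% of all genes, so the counts of 0 say little about the members.

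When the overlap had to span 50% of each peak, Menin peaks covered 55% of the members' UTX peaks (42.7% of all UTX MI-503 peaks), and UTX peaks covered 68.8% of the members' Menin peaks (54.2% of all Menin DMSO peaks). When gaps up to 500 bp were allowed, the shares were 85% (59.8% of all) and 100% (69.02% of all). Ranking by fold put the Nfkbib Menin peak in the top 86.9% in place of 58.9%; the cause was not tested. Of the 61 other pathway genes, 36 had a UTX summit within 1 kb of a boundary and 34 a Menin summit, where all genes had 36.5% and 31.2%. No paired analysis was possible because each condition has 1 library here. The members' UTX summits held 7 to 63 fragments and their Menin summits 14 to 154, and many of the counting intervals overlap.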

Other observations

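Among the 100 highest Menin DMSO peaks, 98 lay over at least 1 peak of UTX in MI-503, with a median UTX rank of 1485, and for 42 of the 100 the UTX peak ranked below the one at Ripk2 (1867). This count was chosen after the Ripk2 values were seen.

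Start-site windows under a UTX MI-503 or a Menin DMSO peak held the κB consensus in 4.98% and 4.94% of cases, against 4.81% of all windows. They held CCAAT or ATTGG in 43.6% and 44.7%, against 38.2% of all windows, with a median of 24 CpG pairs in each set, against 13 over all windows. The part of base composition in these shares was not tested.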
